A study of Danio rerio with 9 samples.

Results

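Microtubule motors and the proteins that build, bind or stiffen the axonal cytoskeleton were followed in brain neurons of adult zebrafish after spinal cord transection. Members were taken by gene symbol: kinesin heavy chains (kif and kifc), kinesin light chains (klc), dynein subunits (dync and dynl), dynactin subunits (dctn), the microtubule-associated proteins MAP1, MAP2 and tau, end-binding proteins (mapre), collapsin response mediator proteins (dpysl and crmp1), doublecortin, neurofilament light and medium chains, and internexin (ina). The rule used names only and no measured value. It found 44 genes, read by 59 probe sets, among 8793 genes with a probe set of their own on the array. Of these, 42 belong to the families named, and 2 match by their letters only, the sugar reductase gene dcxr and inavab. All counts below are over the 42. Neurofilament light and medium chains, doublecortin, map1b, map2 and kif1a were not among the genes found and are not analysed here. The label of an axonal transport set holds for only some of the genes: 10 of the 42 are kinesins known for the mitotic spindle or cytokinesis, and a few others are known for cilia.

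Kinesins mostly walk toward the plus ends of microtubules, which point toward the axon tip, and carry vesicles, mitochondria and filament proteins outward. Cytoplasmic dynein, with its activator dynactin, walks toward the minus ends and brings signalling endosomes and worn organelles back to the cell body. A regrowing axon also depends on the track itself: end-binding proteins sit on growing microtubule tips, tau and MAP1 proteins bind the lattice, collapsin response mediator proteins link guidance signals to tubulin and actin, and internexin is part of the intermediate filaments that fill the axon.

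The study has 9 arrays, 3 for each of 3 groups, which the labels call biological replicates of neurons that project from brain to cord. In the regenerated and nonregenerated groups the cord was cut completely at vertebra 8 and the cut axons were filled with the red tracer Fluororuby. The green tracer Fluoroemerald was injected 4 mm below the cut 3 weeks later, and cells were sorted by fluorescence 1 week after that, so that green marks neurons with an axon regrown to that level. Unlesioned fish received the red tracer at the same vertebra and their labelled neurons were sorted 1 week later. The green tracer is given for the lesioned groups only. Lesion, the green tracer injection and time since the first tracer therefore all separate the unlesioned group from the regenerated and nonregenerated groups. The labels give no strain, sex, number of fish per array or sort gate, nor whether regenerated and nonregenerated neurons came from the same fish. RNA of the sorted cells was amplified before hybridization. In such pooled samples, fewer cells of a type and less RNA per cell cannot be told apart.

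The deposited values are log2 signals centred on each probe set's own median over the 9 arrays, so they show differences between arrays and no levels. No gene can be called expressed or silent from them, and whether the neuronal markers were present at all could not be checked. The 3 regenerated arrays stood apart: on a principal component analysis of all probe sets they scored 35.3 to 55.4 on component 1 (33.4% of the variance), against -31.2 to -12.8 for the other 6. Their values also spread more widely, with an SD over all probe sets of 0.594 to 0.650 against 0.349 to 0.430. Negative control probe sets read a median of 0.47 and 0.29 on regenerated arrays 1 and 3, and between -0.16 and 0.08 on the other 7. Markers of other cells moved with the regenerated group, on lists chosen with earlier results of these data known. Of 7 oligodendrocyte markers measured, 4 fell against nonregenerated neurons, and the list's median was -1.89 to -1.63 on the regenerated arrays and 0.00 to 0.77 on the others. The markers mbpa and mbpb did not follow, at 0.28 and -0.26 against nonregenerated neurons, with overlapping groups. Of 10 radial glia markers 4 fell, with list medians of -1.72 to -0.70 against -0.33 to 0.50. The estimates of all 10 against nonregenerated neurons were negative, but s100b, glula and id1 had overlapping groups (-0.71, -0.44 and -0.895). Of 8 Purkinje cell markers listed, 5 were measured. Of these 5 markers 4 rose, with list medians of 4.13 to 4.64 against -1.46 to 1.21. The remaining marker, rorab, was lower on every regenerated array than on the other 6, by -0.71 against nonregenerated neurons, without a call. Of 9 pan-neuronal markers 3 rose, and the list's median was lowest on the nonregenerated arrays, at -0.96 to -0.31. Between regenerated and nonregenerated neurons, 1.71% of all genes were called lower and 1.25% higher. Against unlesioned neurons the pan-neuronal list was split in regenerated neurons, with 5 positive and 4 negative estimates. There 2 were higher and 2 lower without overlap (44.4% together, beside 20.1% of all genes). The higher ones, gng3 and atp1a3b, were called (22.2%, beside 0.91% of all genes called higher). The lower ones, elavl3 and stmn1b, were not called. None of 4 erythroid markers was called, but all 4 were lower on every nonregenerated array than on any other array. That is 100%, where 5.93% of all genes were lower without overlap than in unlesioned and 12.8% than in regenerated neurons. The list medians were -0.89 to -0.73 in nonregenerated, -0.06 to 0.89 in regenerated and 0.33 to 1.81 in unlesioned neurons. Of 8 leukocyte markers 1 rose in regenerated against unlesioned neurons (12.5%, beside 0.91% of all genes called higher). In nonregenerated against unlesioned neurons 4 were higher without overlap (50%, beside 5.87% of all genes), with no call there. Estimates were positive for 6 of the 8 in both comparisons. The marker lyz went the other way without a call, at -2.81 in regenerated and -2.73 in nonregenerated neurons. It read 4.27, -0.01 and 3.74 on the unlesioned arrays, so its groups overlapped. The part of cell makeup in the differences below was not tested. For the genes described below, fits that include the negative control reading are given where they end a call.

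The comparison of regenerated with nonregenerated neurons asks which genes go with a regrown axon when the cord was cut in both. Uptake of the green tracer also separates these groups, and its part cannot be told apart from that of regrowth. Among the 42 genes, 2 fell in regenerated neurons and none rose: mapre1b, an end-binding protein gene, and dpysl5b, a collapsin response mediator protein gene. A call is an adjusted p under 0.05 from limma's moderated test (two-sided, Benjamini-Hochberg over all 8793 genes, 3 arrays a group). The 2 calls are 4.76% of the 42 genes, beside 2.96% of all genes called in that comparison and 1.71% called lower. The fitted differences of the 42 genes ran from -1.61 to 1.40, with a median of 0.05, against a median of 0.06 over all genes. Groups did not overlap for 7 of the 42 genes, or 16.7%, beside 22.2% of all genes, and 7 had an unadjusted p under 0.05, or 16.7% beside 16.8%. The members as a group thus differed about as often as any gene.

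Against unlesioned neurons, no member was called in the regenerated group, beside 2.26% of all genes. At an unadjusted p under 0.05 there were 8 members, or 19.0%, beside 15.1% of all genes, and the smallest adjusted p was 0.0530, for dpysl5b. Groups did not overlap for 8 of the 42, or 19.0%, beside 20.1% of all genes. The median difference was 0.05 and the range -1.61 to 0.86. Nonregenerated and unlesioned neurons differ by the lesion, the green tracer injection and the time since the first tracer. Between them no member was called, nor was any of the 8793 genes (0%). At an unadjusted p under 0.05 there were 2 members, kifc3 and klc1b, or 4.76%, beside 5.39% of all genes. Groups did not overlap for 5 of the 42, or 11.9%, beside 11.8% of all genes, and all 5 were lower in nonregenerated neurons (11.9%, beside 5.93% of all genes): kif3a, kif7, dynlt3, dpysl5a and inab. In this comparison the estimates of all 9 pan-neuronal markers were negative, with a median of -0.78. Of the 9, 6 were lower without overlap (66.7%, beside 5.93% of all genes). All 3 comparisons use the same 9 arrays: each pair shares a group, so their values are given side by side and not as separate evidence. The 95% interval of the difference lay within 1 log2 unit on either side of 0 for 20 of the 42 genes between regenerated and nonregenerated neurons, for 23 against unlesioned neurons, and for 28 between nonregenerated and unlesioned neurons. For the other genes the interval reached past a 2-fold difference.

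**Figure D1:**
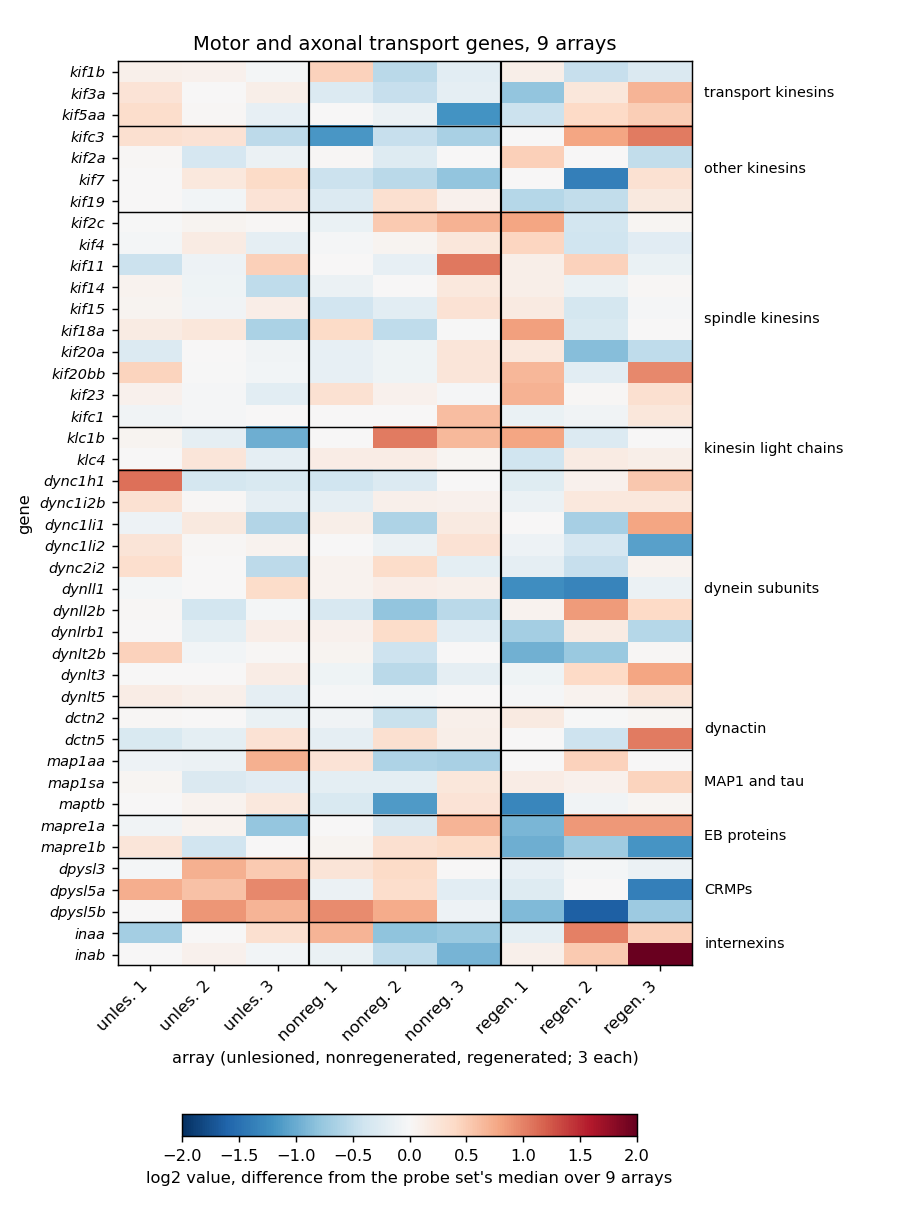
Deposited log2 values, centred on each probe set's median, of the 42 motor and axonal cytoskeleton genes (rows, ordered by family) on the 9 arrays (columns, 3 unlesioned, 3 nonregenerated, 3 regenerated). The rows of mapre1b and dpysl5b are low on all 3 regenerated arrays, and the 10 spindle kinesins show no column pattern shared by a group.

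None of the 3 heavy chains known for axonal cargo was called in any comparison. kif5aa, a heavy chain of conventional kinesin, read 0.35, 0.03 and -0.16 on the unlesioned arrays, 0.00, -0.11 and -1.20 on the nonregenerated arrays, and -0.44, 0.39 and 0.49 on the regenerated arrays. Its groups overlapped, and the low nonregenerated array 3 carried much of the difference of 0.59 ± 0.36 (SE, adjusted p = 0.446, 95% interval -0.22 to 1.40). kif1b, a motor of synaptic vesicle precursors and mitochondria in mammals, read 0.11, 0.09 and -0.03 in unlesioned, 0.46, -0.54 and -0.21 in nonregenerated and 0.11, -0.45 and -0.29 in regenerated neurons. Its difference was -0.11 ± 0.27 between regenerated and nonregenerated neurons (adjusted p = 0.864, 95% interval -0.72 to 0.49). kif3a, a subunit of the kinesin that serves axons and cilia, was lower on every nonregenerated array (-0.46 to -0.18) than on any unlesioned array (0.00 to 0.27), but its regenerated arrays ran from -0.79 to 0.68.

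Kinesin light chains couple conventional kinesin to cargo. klc1b read 0.06, -0.18 and -0.97 on unlesioned arrays, 0.00, 1.04 and 0.65 on nonregenerated arrays, and 0.79, -0.28 and 0.00 on regenerated arrays. It had the highest difference of the 42 genes between nonregenerated and unlesioned neurons, 0.93 ± 0.38, with overlapping groups and an adjusted p of 0.884. klc4 differed by -0.16 ± 0.21 between regenerated and nonregenerated neurons.

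Of 4 kinesins known for other work, kifc3 gave 1 of the wider gaps. It is a minus-end-directed kinesin known in mammals at cell junctions and the Golgi, and it read 0.32, 0.29 and -0.52 in unlesioned, -1.17, -0.46 and -0.65 in nonregenerated, and 0.00, 0.78 and 1.04 in regenerated neurons. Every regenerated array was above every nonregenerated array, and unlesioned arrays lay across the gap. The difference of 1.37 ± 0.34, or 2.58-fold, missed the threshold (adjusted p = 0.0671). It reached the threshold without regenerated array 1 (1.67, adjusted p = 0.0266), the only call of kifc3 among 9 fits that each left out 1 array. Against unlesioned neurons kifc3 differed by 0.58 ± 0.34 in the regenerated and -0.79 ± 0.34 in the nonregenerated group (adjusted p = 0.456 and 0.900). kif7, which acts in Hedgehog signalling at the cilium, was lower on each nonregenerated array (-0.80 to -0.44) than on each unlesioned array (0.01 to 0.38). kif7 differed by -0.79 ± 0.38 there (adjusted p = 0.940), with a spread pooled over all 3 groups, including the regenerated one (SD 0.89). Its regenerated arrays read 0.00, -1.36 and 0.30, and leaving out arrays 1 and 3, whose negative controls read high, gave -1.56 against unlesioned neurons (adjusted p = 0.0277), a value of the single array 2. kif2a, a microtubule depolymerase, and kif19, known in mouse for the length of motile cilia, differed by 0.07 ± 0.25 and -0.34 ± 0.25 between regenerated and nonregenerated neurons.

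The 10 spindle and cytokinesis kinesins (kif2c, kif4, kif11, kif14, kif15, kif18a, kif20a, kif20bb, kif23 and kifc1) had no call and no pair of groups without overlap. Their differences ran from -0.38 for kif20a to 0.48 for kif20bb between regenerated and nonregenerated neurons, with a median of -0.08. The medians were 0.15 for regenerated and 0.14 for nonregenerated neurons against unlesioned ones. kif2c and kif11 were among the 4 highest differences of nonregenerated over unlesioned neurons, at 0.34 ± 0.31 and 0.31 ± 0.35. The probe sets of kif2c gave 1.18, -0.01 and -0.13 there, so its place rests on a single probe set. The 10 proliferation markers had no call either. Between regenerated and nonregenerated neurons 2 of them, mcm5 (-1.48) and pcna (-0.72), were lower without overlap, or 20%, beside 9.37% of all genes lower without overlap. Different probe sets of a gene disagreed in sign between regenerated and nonregenerated neurons only among the spindle kinesins. Of 13 members read by more than 1 probe set, 8 had probe sets of 1 sign and 5 had both signs. Those 5 (kif2c, kif4, kif15, kif20a and kif23) are all spindle kinesins. For kif4 the probe sets gave differences from -1.09 to 0.35 and for kif20a from -0.91 to 0.14, so their averages join readings of opposite sign.

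**Figure D2:**
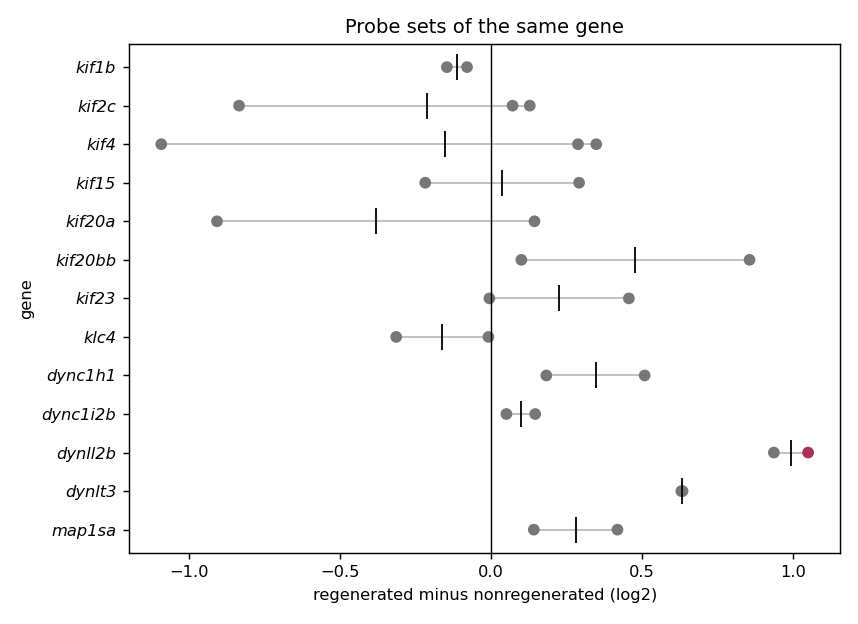
Log2 difference of regenerated minus nonregenerated neurons for each probe set (points, red where called) and their average (tick) of the 13 members read by more than 1 probe set. The probe sets of 5 genes, all spindle kinesins, fall on both sides of 0, while those of dynll2b lie together at 0.94 and 1.05 and those of dynlt3 at 0.63 and 0.64.

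Dynein subunits gave the widest range of the motor genes, with 11 measured, none called, and differences from -1.0 to 0.99 between regenerated and nonregenerated neurons. Both ends belong to the small LC8 light chains, dynll1 and dynll2b, which bind the dynein intermediate chain and many other proteins. dynll1 read -0.04, 0.00 and 0.37 in unlesioned, 0.08, 0.13 and 0.11 in nonregenerated, and -1.24, -1.32 and -0.12 in regenerated neurons. All 3 regenerated arrays were below the other 6, array 3 by little, and the difference was -1.0 ± 0.30 (adjusted p = 0.127) against nonregenerated and -1.0 ± 0.30 (adjusted p = 0.143) against unlesioned neurons. Without regenerated array 3 it was -1.38 (adjusted p = 0.0152) and -1.39 (adjusted p = 0.0183). In each comparison this was the only call of dynll1 among 9 fits that each left out 1 array.

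dynll2b went the other way, with 0.02, -0.37 and -0.05 in unlesioned, -0.32, -0.80 and -0.54 in nonregenerated, and 0.07, 0.85 and 0.40 in regenerated neurons. On the average of its 2 probe sets every regenerated array was above the other 6, regenerated array 1 by little. Of the 2 probe sets, 1 overlapped the unlesioned arrays, with 0.50 on unlesioned array 1 and 0.00 on regenerated array 1. The difference from nonregenerated neurons was 0.99 ± 0.24 (adjusted p = 0.0642) and from unlesioned neurons 0.57 ± 0.24 (adjusted p = 0.304). The first value passed the threshold without regenerated array 1 (1.18, adjusted p = 0.0354), the only call of dynll2b among 9 fits that each left out 1 array. Fitted probe set by probe set, 1 of its 2 probe sets was called higher than in nonregenerated neurons (1.05, adjusted p = 0.0320 over 15502 probe sets, of which 2.45% were called), and the other was not (0.94, adjusted p = 0.290). This fit was chosen after the data were seen.

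The 2 light chains were also compared within each array, a comparison chosen after their values were seen. A shift added to a whole array cancels there, but the wider spread of the regenerated arrays does not. dynll2b minus dynll1 was 1.31, 2.17 and 0.53 on the regenerated arrays, -0.39, -0.93 and -0.65 on the nonregenerated arrays and 0.06, -0.37 and -0.41 on the unlesioned arrays. The regenerated arrays lay above the other 6. The difference in means was 1.99 against nonregenerated and 1.58 against unlesioned neurons, each with an exact two-sided permutation p of 0.1, the smallest that 3 against 3 arrays can give. Over 18 such tests of 6 pairs of related genes, the adjusted p was 0.514 for both. Since the pair was singled out by its opposite readings, the gap is a description.

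The larger dynein subunits and the remaining light chains moved less. dync1h1, the heavy chain that holds the motor, read 1.1, -0.35 and -0.30 in unlesioned, -0.40, -0.27 and 0.01 in nonregenerated, and -0.24, 0.09 and 0.54 in regenerated neurons. The groups overlapped, with a difference of 0.35 ± 0.38 between regenerated and nonregenerated neurons (adjusted p = 0.689, 95% interval -0.51 to 1.2). Of the light intermediate chains, which hold cargo adaptors, dync1li2 read -0.10, -0.34 and -1.08 on the regenerated arrays, all below the unlesioned 0.26, 0.02 and 0.07, with a difference of -0.63 ± 0.26 (adjusted p = 0.299), while the nonregenerated arrays read 0.00, -0.12 and 0.29. dync1li1 differed by 0.15 ± 0.38 and the intermediate chain gene dync1i2b by 0.10 ± 0.20 between regenerated and nonregenerated neurons. Among the Tctex and roadblock light chains, dynlt3 gave 0.63 ± 0.24 (adjusted p = 0.231) and dynlrb1 -0.44 ± 0.26, and dynlt2b gave -0.70 ± 0.28 against unlesioned neurons (adjusted p = 0.281). The dynactin subunits dctn2 (dynamitin) and dctn5 differed by 0.21 ± 0.19 and 0.12 ± 0.35 between regenerated and nonregenerated neurons, with no call.

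**Figure D3:**
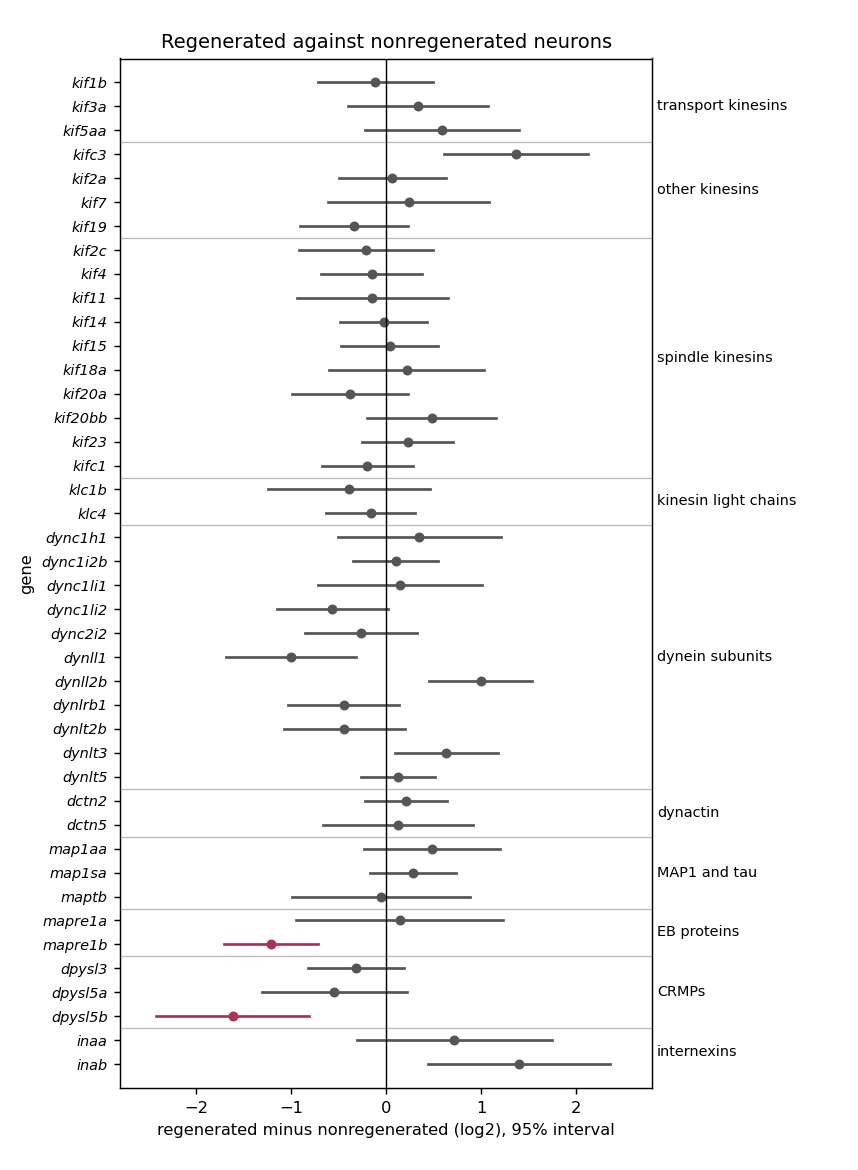
Fitted log2 difference of regenerated minus nonregenerated neurons (points) with its 95% interval (lines) from limma's fit over 9 arrays, for each of the 42 genes by family. The 2 genes called, mapre1b (-1.21) and dpysl5b (-1.61), are in red, and the intervals of most other genes cross 0.

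End-binding protein genes gave the firmer of the 2 calls. mapre1b, which encodes an end-binding protein of growing microtubule tips, read 0.24, -0.39 and 0.00 on the unlesioned arrays, 0.06, 0.32 and 0.39 on the nonregenerated arrays, and -0.98, -0.71 and -1.18 on the regenerated arrays. All 3 regenerated arrays were below the other 6, and unlesioned and nonregenerated arrays overlapped. The group means were -0.05 ± 0.31 (SD, n = 3), 0.26 ± 0.17 and -0.96 ± 0.24. mapre1b fell by 1.21 on the log2 scale, or 2.32-fold, in regenerated against nonregenerated neurons (SE 0.22, limma adjusted p = 0.0218, 95% interval -1.71 to -0.72). Against unlesioned neurons the difference was -0.91 ± 0.22 (adjusted p = 0.0775), and between nonregenerated and unlesioned neurons 0.31 ± 0.22. The call was lost without nonregenerated array 2 (-1.18, adjusted p = 0.0871), nonregenerated array 3 (-1.15, adjusted p = 0.0841) or regenerated array 3 (-1.10, adjusted p = 0.0591), and without regenerated arrays 1 and 3 together (-0.96, adjusted p = 0.143). It was also lost once each array's negative control median entered the fit (-1.23, adjusted p = 0.115) and after quantile normalization (-1.01, adjusted p = 0.0769).

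Its paralog mapre1a showed no such shift. It read -0.06, 0.07 and -0.78 in unlesioned, 0.00, -0.29 and 0.69 in nonregenerated, and -0.91, 0.86 and 0.87 in regenerated neurons. The regenerated arrays spanned all others, and the difference from nonregenerated neurons was 0.14 ± 0.48 (adjusted p = 0.911, 95% interval -0.95 to 1.23). Within arrays, mapre1a minus mapre1b was higher in regenerated than nonregenerated neurons by 1.35 on average, with overlapping groups (exact permutation p = 0.2, adjusted p = 0.514 over the 18 tests). With 3 arrays a group this test cannot go below 0.1, so it leaves a difference between the paralogs undecided.

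Collapsin response mediator proteins bind tubulin and relay semaphorin signals in growing axons, and 3 of their genes were measured. dpysl5b, a gene for CRMP5, read 0.00, 0.89 and 0.69 on the unlesioned arrays, 0.94, 0.74 and -0.10 on the nonregenerated arrays, and -0.88, -1.64 and -0.73 on the regenerated arrays. All 3 regenerated arrays were below the other 6. The means were 0.52 ± 0.47 (SD, n = 3), 0.53 ± 0.55 and -1.08 ± 0.49. dpysl5b fell by 1.61, or 3.06-fold, in regenerated against nonregenerated neurons (SE 0.36, limma adjusted p = 0.0469, 95% interval -2.42 to -0.81). Against unlesioned neurons the difference was -1.61 ± 0.36 (adjusted p = 0.0530), and nonregenerated and unlesioned neurons had the same mean to within 0.01.

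The call on dpysl5b sat at the threshold. It was kept without unlesioned array 1 or nonregenerated array 3, and lost without any single one of the other 7 arrays, with adjusted p from 0.0591 without regenerated array 3 to 0.160 without nonregenerated array 2. The estimate without 1 array ran from -1.93 to -1.34. It was negative under all 21 alternative settings, whose adjusted p ran from 0.0371 to 0.198. Since the 2 groups did not overlap, leaving out arrays could not turn that sign, and some other settings cannot move the estimate. The call was also lost once the negative control median entered the fit (-1.66, adjusted p = 0.198) and after quantile normalization (-1.32, adjusted p = 0.144). It was lost as well with array weights (-1.57, adjusted p = 0.0677). The estimate stayed at -1.61 but the call was lost with only the 6 arrays compared (adjusted p = 0.0885), robust moderation (0.0519) and the probe set of largest SD per gene (0.0532). Since 1 probe set reads dpysl5b, the last setting changes only what the fit and the adjustment take from other genes. The oligodendrocyte and radial glia lists had low medians on the same regenerated arrays, though not every marker followed, as given above. Their part in the reading of dpysl5b and mapre1b was not tested.

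The other CRMP genes leaned the same way without a call. dpysl5a read 0.72, 0.58 and 0.96 in unlesioned, -0.12, 0.35 and -0.21 in nonregenerated, and -0.25, 0.00 and -1.37 in regenerated neurons. Both lesioned groups were below every unlesioned array, by -1.30 ± 0.34 for regenerated (adjusted p = 0.0973) and -0.75 ± 0.34 for nonregenerated neurons (adjusted p = 0.921), and they overlapped each other (-0.55 ± 0.34, adjusted p = 0.450). dpysl3, the gene for CRMP4, read -0.04, 0.72 and 0.52 in unlesioned, 0.25, 0.39 and 0.00 in nonregenerated, and -0.17, -0.03 and -0.12 in regenerated neurons. The regenerated arrays lay just below the nonregenerated ones, with a difference of -0.32 ± 0.22 (adjusted p = 0.503). Within arrays, dpysl5a minus dpysl5b differed by 1.07 between regenerated and nonregenerated neurons, with overlapping groups (exact permutation p = 0.3, adjusted p = 0.675).

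Microtubule lattice proteins showed no call. map1aa, a MAP1 family gene of mature axons and dendrites in mammals, read -0.10, -0.11 and 0.71 in unlesioned, 0.27, -0.62 and -0.64 in nonregenerated, and 0.00, 0.46 and 0.01 in regenerated neurons, and its groups overlapped (0.49 ± 0.32 between regenerated and nonregenerated, adjusted p = 0.472). map1sa read 0.04, -0.29 and -0.22 in unlesioned, -0.19, -0.20 and 0.23 in nonregenerated, and 0.15, 0.09 and 0.44 in regenerated neurons. Its regenerated arrays were above the unlesioned ones by 0.38 ± 0.20 (adjusted p = 0.407). maptb, a tau gene, read 0.00, 0.07 and 0.21 in unlesioned, -0.30, -1.14 and 0.27 in nonregenerated, and -1.31, -0.07 and 0.04 in regenerated neurons. The spread of both lesioned groups was over 0.70 (SD, n = 3), and the difference between them was -0.05 ± 0.42.

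**Figure D4:**
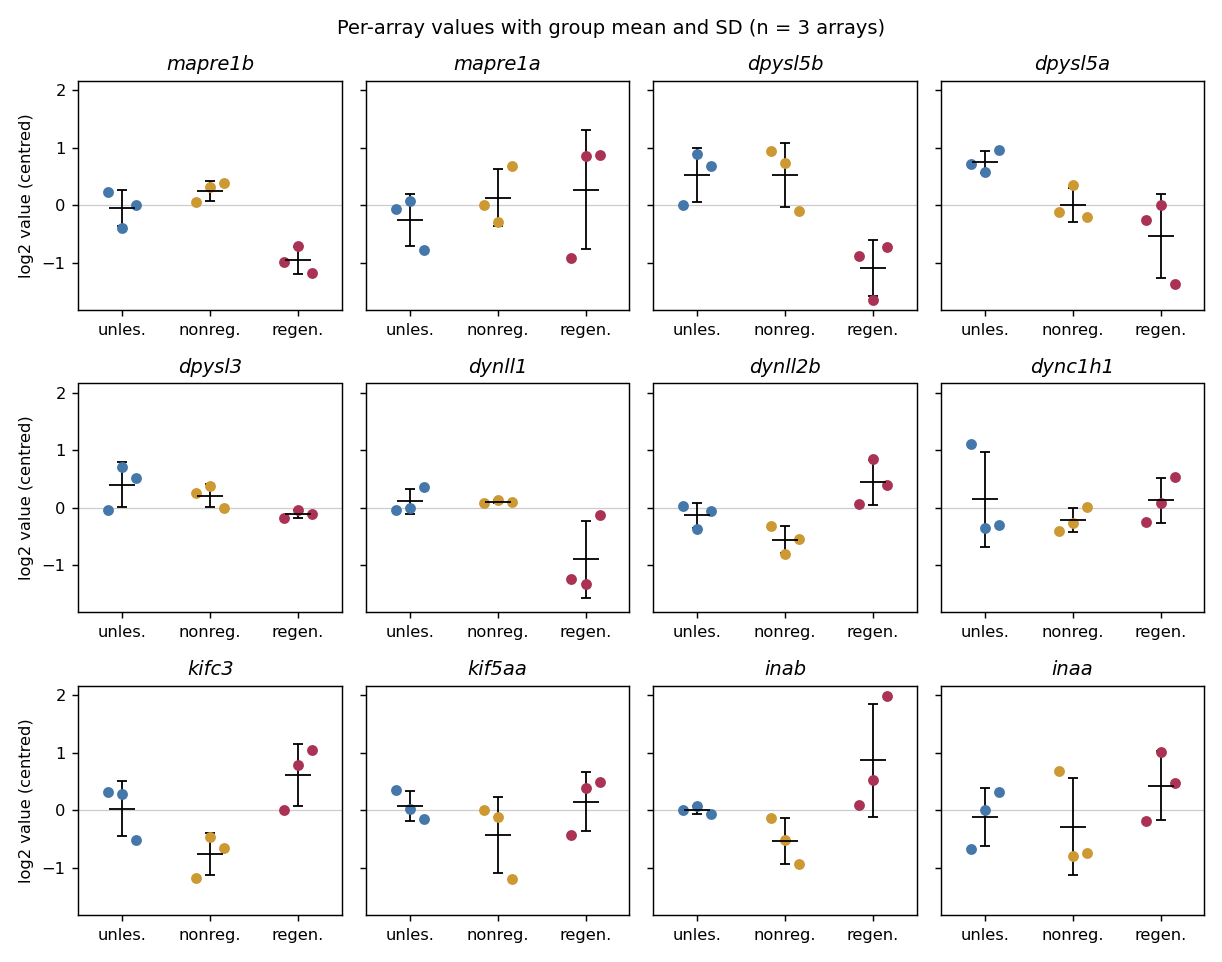
Centred log2 values on each of the 9 arrays (points, by group), with the group mean (horizontal mark) and SD (error bars, n = 3), of the end-binding, CRMP and internexin genes and of 5 motor genes. Regenerated arrays of mapre1b, dpysl5b and dynll1 lie below the other 6 arrays, dynll1 array 3 by little. Those of dynll2b and inab lie above the other 6, array 1 of each by little.

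Neither of the 2 internexin genes measured was called in any comparison. inab, known as gefiltin in zebrafish, encodes a neuronal intermediate filament protein and read 0.00, 0.08 and -0.06 in unlesioned, -0.14, -0.52 and -0.94 in nonregenerated, and 0.10, 0.52 and 1.98 in regenerated neurons. The 3 groups did not overlap: nonregenerated arrays were lowest and regenerated arrays highest, by a narrow margin for regenerated array 1. The difference of 1.40 ± 0.43 between regenerated and nonregenerated neurons, or 2.63-fold, had an adjusted p of 0.130 (95% interval 0.44 to 2.35), and that against unlesioned neurons was 0.86 ± 0.43 (adjusted p = 0.378). inaa read -0.68, 0.00 and 0.33 in unlesioned, 0.69, -0.80 and -0.74 in nonregenerated, and -0.19, 1.01 and 0.47 in regenerated neurons, with overlapping groups and a difference of 0.72 ± 0.46 (adjusted p = 0.463). The pan-neuronal list, like inab, was lowest on the nonregenerated arrays, and its part was not tested.

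The wider pathway was read from 2 further lists. Of 58 motor adaptor and cargo-linker genes listed, 22 were measured. None was called between regenerated and nonregenerated neurons, where the median was 0.29 (all genes 0.06). Against unlesioned neurons 1 of 22 fell, or 4.55%, beside 2.26% of all genes called and 1.35% called lower, and the median was -0.06. That gene was kidins220b, a scaffold of neurotrophin signalling that kinesin carries in mammals, with 0.11, 0.00 and 0.11 in unlesioned, 0.00, 0.05 and -0.42 in nonregenerated, and -1.05, -0.72 and -0.77 in regenerated neurons. All regenerated arrays were below the other 6, and it fell by 0.92 on the log2 scale against unlesioned neurons (SE 0.19, adjusted p = 0.0443), a call kept without nonregenerated array 3 and lost without any single one of the other 8 arrays (adjusted p 0.0651 to 0.138). The call was also lost after quantile normalization (-0.72, adjusted p = 0.180), once the negative control median entered the fit (-0.72, adjusted p = 0.237) and with array weights (adjusted p = 0.0632). It was lost with the estimate unchanged with only the 6 arrays compared (adjusted p = 0.0844) and with the probe set of largest SD per gene (adjusted p = 0.0550). Without regenerated arrays 1 and 3, which leaves 1 regenerated array, the estimate was -0.79. sybu, the gene for syntabulin, which links conventional kinesin to syntaxin vesicles, was not called but had the lowest adjusted p of the list between regenerated and nonregenerated neurons (1.65 ± 0.38, 3.14-fold, adjusted p = 0.0522), and it was named after its value was seen.

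Of 92 listed genes for microtubule regulation and other cytoskeletal proteins of axons, 37 were measured. Of these, 1 rose in regenerated against nonregenerated neurons and none fell, which is 2.70% beside 2.96% of all genes called, and the list median was -0.06. The riser was prph, the gene for peripherin, a neuronal intermediate filament protein that partners neurofilaments and internexin. prph read -0.14, 0.00 and -0.12 in unlesioned, -0.62, -0.59 and -0.07 in nonregenerated, and 0.64, 1.91 and 2.53 in regenerated neurons, so that every regenerated array was above the other 6. It rose by 2.12 ± 0.41 (SE), or 4.34-fold (adjusted p = 0.0287), and differed by 1.78 ± 0.41 from unlesioned neurons (adjusted p = 0.0594). The call was lost without unlesioned array 3, any nonregenerated array, or regenerated array 2 or 3 (adjusted p 0.0527 to 0.102), without the probe set prone to cross-hybridization (1.71, adjusted p = 0.0520), once the negative control median entered the fit (2.64, adjusted p = 0.0761) and with only the 6 arrays compared (adjusted p = 0.0879). Its probe sets differed in size: the one of largest SD alone gave 3.35 (adjusted p = 0.00926). By the averages with and without it, this is the probe set prone to cross-hybridization, so 3.35 is not a separate reading. No gene of either list was called between nonregenerated and unlesioned neurons.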

How the data were processed

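RNA of sorted neurons was amplified, labelled with biotin and hybridized to an Affymetrix 3' IVT zebrafish array, 1 array per sample. The values are log2 signals that the authors made with RMA, per the submitters' processing notes, which give no version. In the deposited table the median of every probe set over the 9 arrays is 0. This centring leaves differences between groups as they were but removes levels, and no source used here names the step that made it. No filter on dim probe sets was possible. No other sample columns were in the table.

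Of 15617 probe sets, 115 controls were left out, which left 15502. By the platform annotation 10795 name 1 gene symbol, 135 several and 4572 none. Symbols were updated through RefSeq's table of assembly GRCz12tu (10711 matched, 1 was replaced). Probe sets of a gene were averaged, which gave 8793 genes. One probe set that names dcxr beside another gene was left out. limma 3.58.1 in R 4.3.3 fitted 3 group means over the 9 arrays, with 6 residual and 3.54 prior degrees of freedom. Tests were two-sided and p-values were Benjamini-Hochberg adjusted over all genes. SE and 95% intervals come from that fit, and the number of arrays limits their precision. The fit pools the spread of the 3 groups, so that of the regenerated arrays also enters the values between nonregenerated and unlesioned neurons. Related genes were compared within arrays by exact permutation. The fit was also run on simulated data in which each gene had the same spread on all 9 arrays. The regenerated arrays spread more widely than that, and no result above rests on this run. Figures were drawn with matplotlib 3.10.9.

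Named were members called in any comparison, the 4 highest and 4 lowest differences per comparison, all MAP, tau, end-binding, CRMP and internexin genes, the kif1 and kif5 genes and dync1h1, and others to complete a family. Members, marker lists and pathway lists were chosen with earlier results of these data known. Alternatives covered array scaling, array weights, robust moderation, negative controls, the choice of probe sets, a replicate block and leaving out arrays. No sequences are shown.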

Additional observations from a re-analysis of the deposited data

How the results depend on the processing

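Between regenerated and nonregenerated neurons, the count of 2 called members became 4 at an adjusted p under 0.10 (2 higher, 2 lower), 1 with only the 6 arrays compared, with array weights, with robust moderation or with the probe set of largest SD, and 0 after quantile normalization or with the negative control reading in the model. Leaving out 1 array gave 0 (without nonregenerated array 2) to 3 (without regenerated array 1). Without regenerated arrays 1 and 3 it was again 2, but of other genes, dynll1 and dynll2b. mapre1b was called under 14 of 21 alternatives and dpysl5b under 6. Both were lower under all 21, but leaving out arrays could not turn that sign, since regenerated and nonregenerated arrays did not overlap for either gene. Against unlesioned neurons the count of 0 became 3 at an adjusted p under 0.10, 2 with arrays centred on their 75th percentile (dpysl5b and mapre1b), 2 without regenerated arrays 1 and 3 (dynll1 and kif7), and 0 to 1 without 1 array (dpysl5b without nonregenerated array 3, dynll1 without regenerated array 3). It stayed 0 between nonregenerated and unlesioned neurons under every alternative.

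The median difference of the members, 0.052 between regenerated and nonregenerated neurons, was -0.068 with 75th-percentile centring, which shifted the median of all genes by -0.12, -0.16 with the negative control reading, -0.0064 with the probe set of largest SD, -0.13 without regenerated arrays 1 and 3, and -0.073 to 0.14 without 1 array. Against unlesioned neurons it was 0.050, and -0.064 with 75th-percentile centring, -0.10 with the negative control reading and -0.045 without regenerated arrays 1 and 3. Without 1 array it was -0.081 to 0.094. Between nonregenerated and unlesioned neurons it was -0.037, and -0.091 to 0.023 without 1 array. The sign of the members' median thus turned under at least 1 setting in each comparison, and the cause of each change was not tested. With a lone array left, its spread was assumed to be that of the other groups.

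Whether the replicate numbers pair the samples is not given, and correlations over 3 arrays a group cannot decide it. Deviations of same-numbered regenerated and nonregenerated arrays correlated at 0.11, -0.03 and 0.24, and those of differently numbered arrays at -0.24 to 0.13. Not every array correlated best with its own number. With the replicate number as a block, the count of called members between regenerated and nonregenerated neurons was 0 in place of 2, and 0 in the other comparisons. In that limma fit the adjusted p between regenerated and nonregenerated neurons was 0.0548 for mapre1b and 0.0907 for dpysl5b.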
